A study of Mus musculus with 43 samples.

Results

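The 10 genes described here restrain mitogen-activated protein (MAP) kinase signalling: *Dusp1*, *Dusp4*, *Dusp5*, *Dusp6*, *Dusp10*, *Spry1*, *Spry2*, *Spry4*, *Spred1* and *Spred2*. They are 10 of the 54532 genes in the deposited table of read counts, found by gene symbol, and all 10 passed the filter on low counts, which left 18628 genes. They were chosen by their values in short-chain fatty acid (SCFA)-treated retinas against control retinas, within each sex and day and within each run of columns of the count table. Their values in that comparison are therefore given as a description, with standard errors and without a test.

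MAP kinases carry signals from growth factor receptors and from stress to the nucleus, where they switch on transcription. ERK, JNK and p38 are the main branches. The dual-specificity phosphatases (DUSPs) remove the activating phosphates from these kinases. Sprouty and Spred proteins act upstream, at the level of RAS and RAF. Many of these genes are themselves induced by the kinases that they shut down, so their transcripts are often read as a record of pathway activity, in the retina as elsewhere.

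Retinal RNA was sequenced from 43 libraries, each from 2 retinas of different mice pooled. All mice were C57BL/6J, were 9 weeks old at the laser injury and received the retinal laser lesion that induces choroidal neovascularization (CNV), so the controls (CTR) were lasered as well and no unlasered retina was analysed here. SCFA-treated mice drank 67.5 mM sodium acetate, 25 mM sodium butyrate and 40 mM sodium propionate from before the lesion until collection, and controls received none. The 12 groups are males (M) and females (F), control or SCFA, collected 3, 7 or 14 days after the laser (days post laser, dpl), with 3 to 5 libraries each, and a sex and day together are called a stratum. Whole retina was used, so fewer cells of a type and less RNA per cell cannot be told apart.

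Library totals ran from 14826957 to 21507527 counts. The count table holds the libraries in 2 runs of columns, 31 first and 12 last. The runs differed in mitochondrial mRNA, which took 4.71% to 14.8% of the counts in the first and 2.50% to 4.57% in the second, and the labels do not say what the runs are. Both treatments occur in both runs only in males at 3 dpl and females at 14 dpl. Rod markers were high in every library, with sums from 48500 to 101000 CPM, which relates a gene's counts to the scaled total of its library. Female control 7 dpl replicate 2 held 784 counts of 4 Y-linked genes, against 0 in the other 21 libraries labelled female and 2229 to 4494 in the 21 male libraries, so it was left out of the reported fit, and 42 libraries and 2 female controls at 7 dpl remained. In addition, 4 SCFA libraries stood apart. Lens crystallin markers summed to 224000 CPM in female SCFA 3 dpl replicate 2 and to 1.42 to 567 CPM elsewhere, and female SCFA 3 dpl replicate 3 and male SCFA 7 dpl replicates 1 and 3 had mitochondrial mRNA above 10%. Values without all 4 are given for the members described in males at 7 dpl and females at 3 dpl.

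Per length, *Spry2* was the most abundant of the 10 transcripts in controls, at 26.8 ± 4.83 CPM per kb of longest transcript (SD, n = 18 libraries). *Dusp1* (15.5 ± 5.48), *Dusp5* (12.5 ± 1.77) and *Spred1* (12.2 ± 2.44) followed in CPM per kb, and these 3 did not differ beyond their spread. A middle group held *Dusp6* (6.00 ± 1.40), *Dusp4* (5.58 ± 4.13), *Dusp10* (5.00 ± 1.13) and *Spred2* (4.08 ± 0.901), also in CPM per kb and also within their spread. *Spry1* (2.52 ± 0.373) and *Spry4* (1.79 ± 0.415) were lowest, and every library held at least 63 counts of each member. In GENCODE M21 on GRCm38, *Dusp1* (ENSMUSG00000024190) spans bases 26505590 to 26562128 of chromosome 17, with a long isoform that overlaps *Ergic1*, and *Dusp4* (ENSMUSG00000031530) spans 34807297 to 34819894 of chromosome 8 and overlaps no other gene. Between the lowest and the highest library, CPM differed 10.5-fold for *Dusp4*, 5.15-fold for *Dusp1* and *Spry1*, and 1.66-fold for *Dusp5*.

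**Figure D1:**
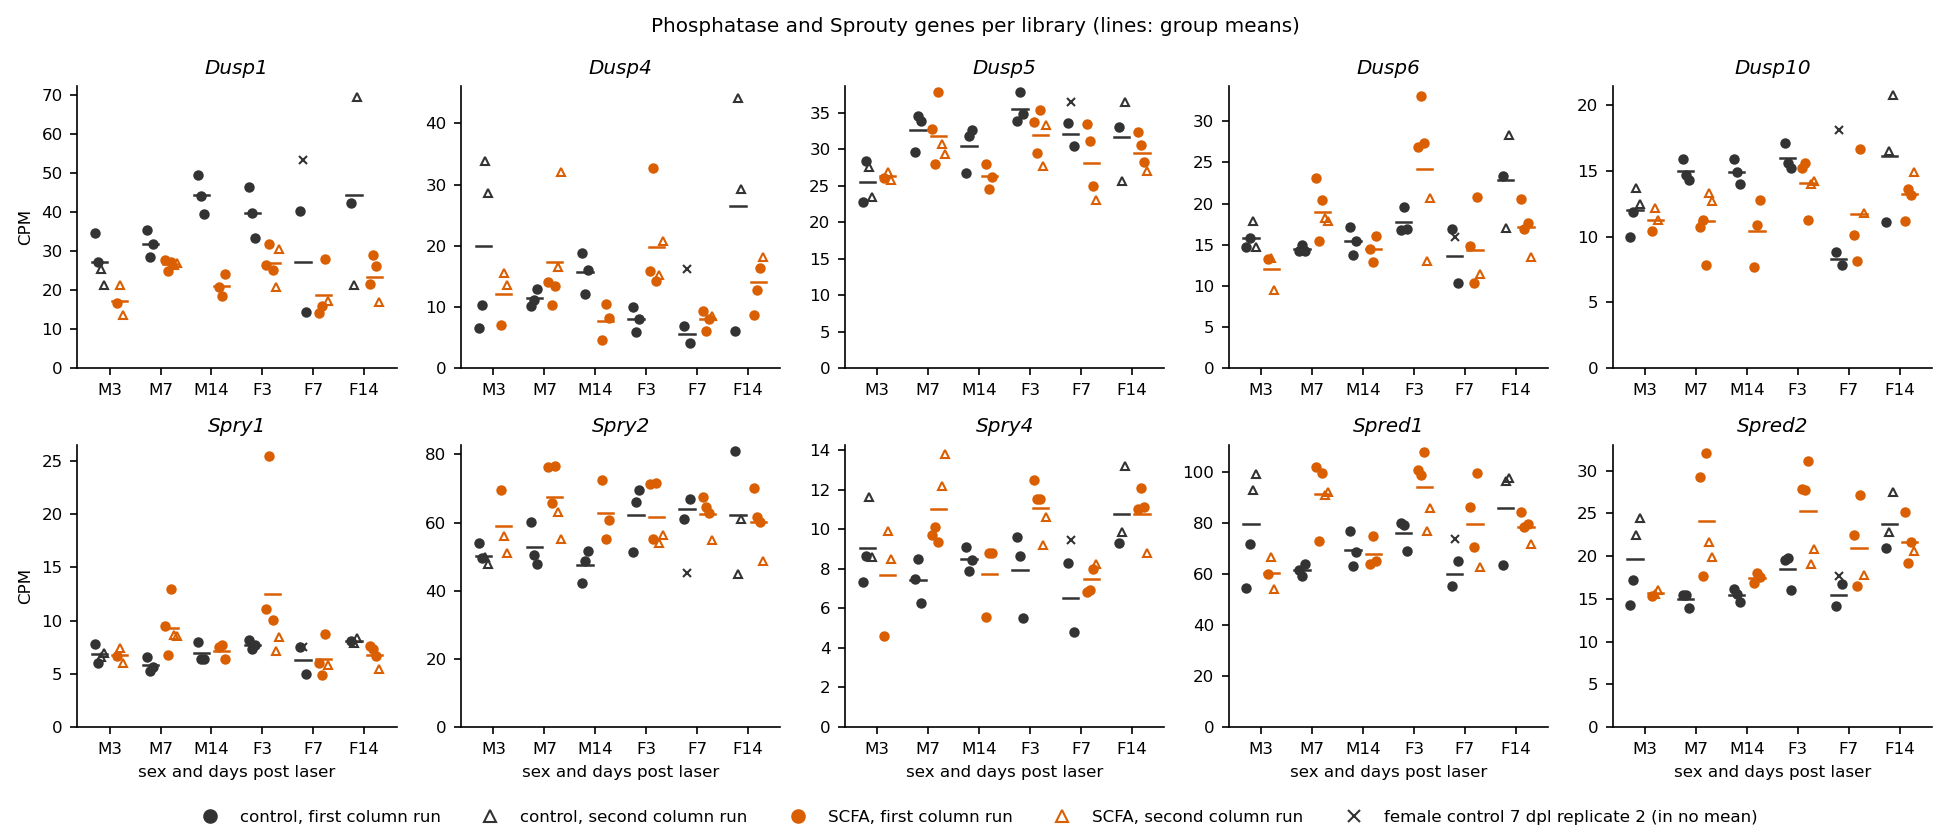
CPM (vertical axes, from 0) of the 10 genes in each of the 43 libraries, by sex and day, with controls in black and SCFA in orange; circles are the first and triangles the second run of columns, lines are group means, and the cross is the library left out. *Dusp1* lies lower with SCFA in most strata, *Dusp4* controls of the second run lie between 28.7 and 44.1 CPM, and *Dusp5* stays between 22.8 and 37.9 CPM.

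*Dusp1* encodes a nuclear phosphatase of ERK, JNK and p38 and is a classical immediate early gene. *Dusp5* encodes a nuclear phosphatase specific for ERK. The 250 bases before the RefSeq transcription start are shown for these 2 genes of one family because their values differed in kind: *Dusp1* was the most consistently lower member with SCFA and *Dusp5* the flattest. RefSeq promoters on GRCm38.p6 were matched for 8 of the 10 members. In the *Dusp1* sequence (chr17:26508473-26508722, minus strand) the capitals mark the cyclic AMP response element (CRE) TGACGTCA, 143 to 136 bases before the start. In the *Dusp5* sequence (chr19:53528895-53529144, plus strand) they mark 2 adjoining CArG boxes, the motif of serum response factor, 82 to 73 and 72 to 63 bases before the start. Each runs 5′ to 3′ on the strand of the gene.
Dusp1: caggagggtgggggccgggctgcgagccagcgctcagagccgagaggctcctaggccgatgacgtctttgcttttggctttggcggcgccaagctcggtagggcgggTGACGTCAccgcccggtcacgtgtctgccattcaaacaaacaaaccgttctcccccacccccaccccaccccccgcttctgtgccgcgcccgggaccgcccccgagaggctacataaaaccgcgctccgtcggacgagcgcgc
Dusp5: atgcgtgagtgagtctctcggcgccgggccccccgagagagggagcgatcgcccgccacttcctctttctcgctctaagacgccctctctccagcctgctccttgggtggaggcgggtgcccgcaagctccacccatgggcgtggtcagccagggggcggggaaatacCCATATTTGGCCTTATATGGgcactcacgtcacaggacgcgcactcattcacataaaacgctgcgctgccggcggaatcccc
The CRE was found on either strand in 1.55% of 32841 promoters of this length and in 1 of the 8 members. At least 1 CArG box was found in 1.47% of promoters, and 2 or more in 0.0183%. The shorter TGACG, which also lies inside the CRE, was found in 17.8% of promoters and in *Dusp1*, *Dusp5* and *Spred2*. The AP-1 motif TGANTCA (6.75% of promoters) and TATAAA (12.4%) were found in none of the 8 members. These are matches of letters, and binding was not measured.

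*Dusp1* was lower with SCFA in all 6 strata as fitted. In males at 14 dpl the controls had 49.5, 44.0 and 39.5 CPM and the SCFA libraries 20.8, 18.5 and 24.0 CPM. The groups did not overlap, and the log2 fold change was -1.07 ± 0.29 (SE), or 0.477-fold. Without male control 14 dpl replicate 1 the log2 fold change was -0.98.

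Several cell type markers were also lower with SCFA in males at 14 dpl, without overlap of their summed levels. Of all single genes tested, 17.5% were lower without overlap in this stratum. The sum of 10 microglia markers was 99.2 to 104 CPM in controls and 60.0 to 84.6 CPM with SCFA, and that of 12 pigment epithelium and melanocyte markers 304 to 594 CPM and 154 to 265 CPM. The 6 ganglion cell markers summed to 905 to 1100 CPM against 626 to 853 CPM, the 6 amacrine and horizontal cell markers to 431 to 473 CPM against 374 to 395 CPM, the 6 Müller glia markers to 4470 to 4570 CPM against 3910 to 4160 CPM, and the 7 pericyte and fibroblast markers to 97.7 to 104 CPM against 78.3 to 93.1 CPM. All markers of these lists were detected in both groups, and 1 of them, of the pigment epithelium list, was called lower by edgeR. A gene was called if its Benjamini-Hochberg adjusted p was under 0.1 and its log2 fold change beyond 1 in either direction. The sums of the rod and cone markers overlapped, with medians of 74000 and 1840 CPM in controls and 84700 and 2040 CPM with SCFA. The part of these cell types in the lower *Dusp1*, *Dusp4* and *Dusp10* of this stratum was not tested.

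In males at 3 dpl, *Dusp1* had 34.5, 27.3, 25.5 and 21.3 CPM in controls and 16.8, 21.2 and 13.5 CPM with SCFA. These groups did not overlap either, by a narrow margin, and the log2 fold change was -0.62 ± 0.27. It was -0.86 ± 0.39 within the first run of columns (1 SCFA against 2 control libraries) and -0.43 ± 0.38 within the second (2 against 2). The 8 rod markers of this stratum summed to 66200 to 77000 CPM in controls and 83600 to 84900 CPM with SCFA, and their part in its values was not tested. In males at 7 dpl the controls had 35.4, 28.4 and 31.9 CPM and the SCFA libraries 24.9 to 27.8 CPM, with a median of 27.0. The log2 fold change there was the smallest, -0.20 ± 0.26 (-0.17 without the libraries that stood apart), with all SCFA libraries just under the lowest control.

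In females at 3 dpl the *Dusp1* controls had 46.4, 39.7 and 33.2 CPM, and the SCFA libraries 26.4, 31.8, 25.2, 20.7 and 30.4 CPM. The SCFA libraries all lay below the controls, with a log2 fold change of -0.52 ± 0.26, and -0.51 without the libraries that stood apart. In females at 14 dpl the controls had 42.3, 21.4 and 69.4 CPM and the SCFA libraries 21.6, 28.9, 26.1 and 17.0 CPM. These groups overlapped through control replicate 2 alone, and the log2 fold change of -0.99 ± 0.27 became -0.72 ± 0.34 within the first run (3 SCFA against 1 control) and -1.40 ± 0.49 within the second (1 against 2). Without control replicate 3 it was -0.48.

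Females at 7 dpl were the weakest case for *Dusp1*. The 2 controls had 40.3 and 14.3 CPM and the SCFA libraries 14.1, 15.8, 27.9 and 17.3 CPM. The controls spanned the SCFA libraries almost entirely, and the log2 fold change of -0.52 ± 0.30 turned to 0.43 without control replicate 1 and fell to -1.07 without control replicate 3. Among the libraries of the fit, the direction in this stratum thus rests on 1 library. The excluded control replicate 2, with Y-linked transcripts, had 53.3 CPM.

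**Figure D2:**
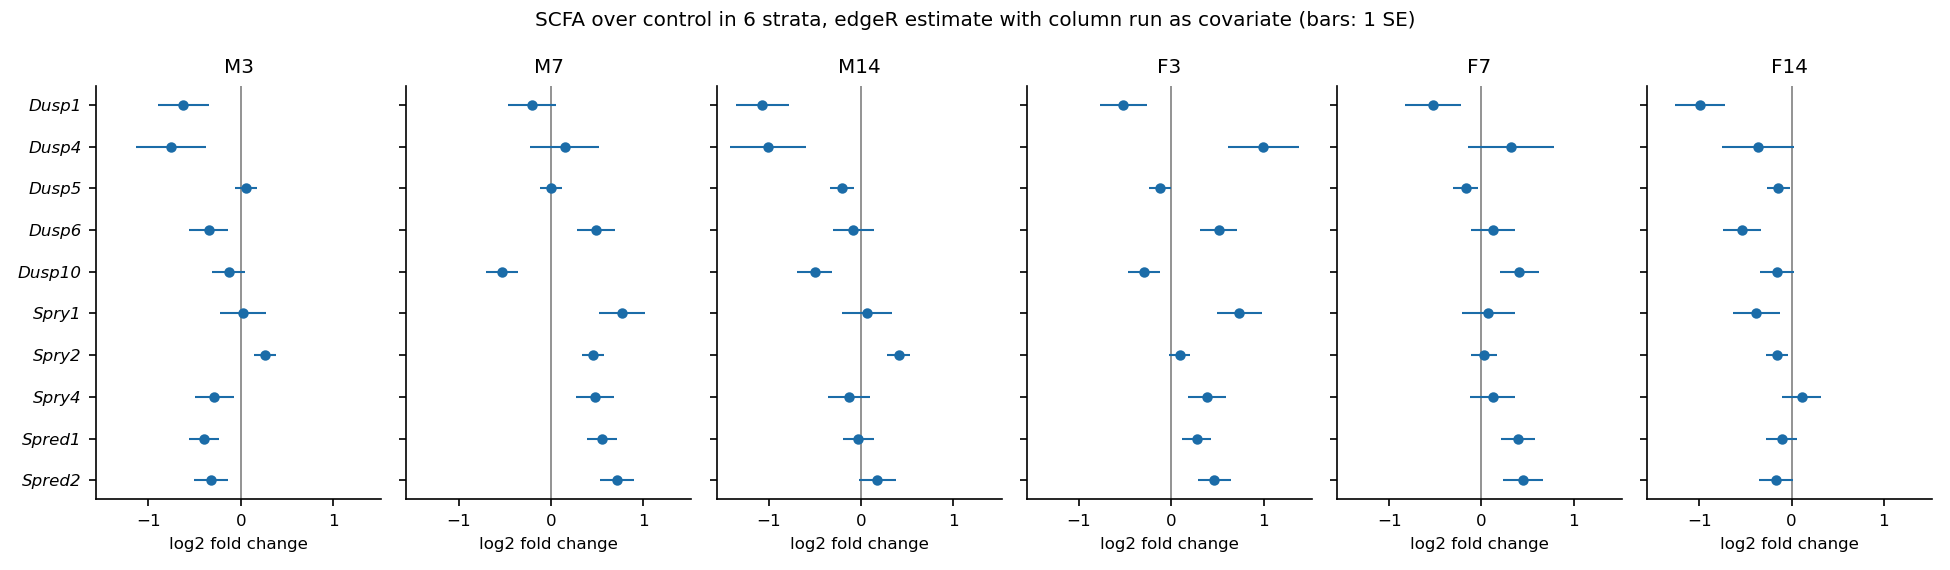
Log2 fold change of SCFA over control (horizontal axes) for each of the 10 genes in the 6 strata, from the edgeR fit of 42 libraries with the run of columns as a covariate; points are estimates and bars 1 SE. *Dusp1* is left of 0 in every panel, *Spry* and *Spred* genes are right of 0 in males at 7 dpl, and *Dusp4* runs from -1.01 in males at 14 dpl to 0.999 in females at 3 dpl.

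The level of *Dusp1* followed that of the immediate early genes, the transcripts that neurons and glia make within minutes of a stimulus. After removal of group and run differences, its log2(CPM + 1) correlated with the mean z-score of 27 such genes at Pearson r = 0.857 and Spearman rho = 0.744 over 42 libraries, and at r = 0.773 without the 2 libraries farthest from the median. Within the runs, r was 0.761 (n = 30) and 0.954 (n = 12). The other 9 members had r between -0.216 (*Spred1*) and 0.456 (*Spry4*) over the same libraries. These correlations are descriptions, and no test was made of them.

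*Fos*, a subunit of the AP-1 transcription factor, is shown beside *Dusp1* and was chosen after its values were seen. Its level was 20.1 to 101 CPM in the 19 controls and 16.6 to 48.4 CPM in the 24 SCFA libraries. The control libraries with the lowest *Dusp1* were also those with low *Fos*: female control 7 dpl replicate 3 had 14.3 CPM of *Dusp1* and 20.1 of *Fos*, and female control 14 dpl replicate 2 had 21.4 and 21.0. Male control 3 dpl replicates 3 and 4, of the second run, had 25.5 and 21.3 CPM of *Dusp1* and 28.3 and 22.5 CPM of *Fos*. The highest library for both was female control 14 dpl replicate 3, with 69.4 CPM of *Dusp1* and 101 CPM of *Fos*.

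**Figure D3:**
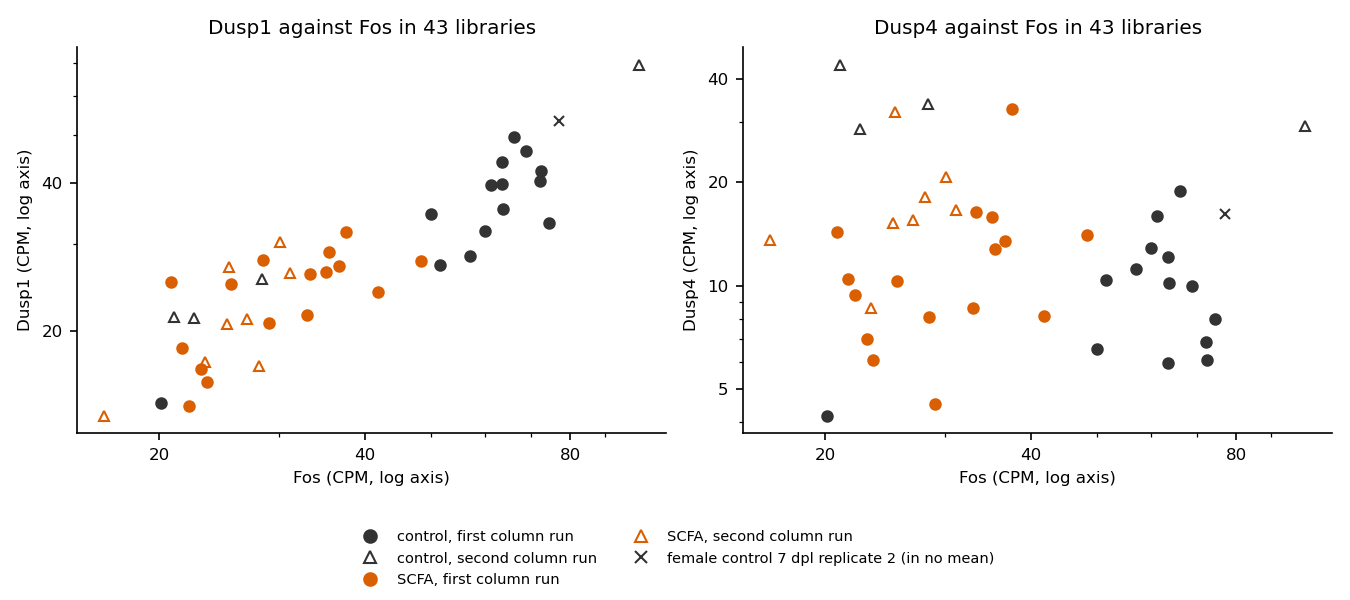
*Dusp1* (left) and *Dusp4* (right) against *Fos* in the 43 libraries, all axes in CPM on a log scale, with symbols as in the plot of CPM by library. *Dusp1* rises with *Fos* across controls and SCFA libraries, from 13.5 to 69.4 CPM, while *Dusp4* shows no such slope.

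The immediate early genes themselves are a list of 27 that does not hold the members. Their median log2 fold change with SCFA was below 0 in all 6 strata, and genes were called lower in 3 of them. The list was chosen with earlier results of these data known, so its calls and adjusted p are a description and no independent test. Called genes of the list numbered 10 lower in males at 14 dpl, 6 lower in males at 7 dpl and 6 lower in females at 3 dpl, with 0 higher in each, and 0 in the other 3 strata. Over all genes, 0.483%, 1.14% and 0.515% were called lower in those 3 strata. In the others, 0.0215% of all genes were called in males at 3 dpl, and 0 of 18628 in females at 7 and 14 dpl. A count of 0 there thus does not show that the list was unchanged. The median log2 fold change of the list was -0.65, -0.37 and -0.67 in males at 3, 7 and 14 dpl and -0.49, -0.43 and -0.76 in females, against -0.03 to 0.01 for all genes tested. In males at 14 dpl, *Klf4* and *Atf3*, both transcription factors of the stress response, fell by 2.04 ± 0.38 (adjusted p = 0.00592, edgeR) and 1.33 ± 0.29 (adjusted p = 0.0141), and *Ccn1*, a matrix-associated signalling protein, fell by 2.53 ± 0.52 (adjusted p = 0.0108) on the log2 scale. In males at 7 dpl *Egr1*, a zinc finger factor induced by ERK, had a log2 fold change of -2.42 ± 0.42 (edgeR adjusted p = 0.000285), and *Nr4a1*, an orphan nuclear receptor, of -1.46 ± 0.30 (0.00106). In females at 3 dpl the log2 fold change was -1.56 ± 0.30 for *Nr4a1* (edgeR adjusted p = 0.00759) and -1.23 ± 0.27 for *Fosb* (0.0134). Without the 4 libraries that stood apart, the list had 11 genes called lower in males at 14 dpl, 3 in males at 7 dpl and 0 in females at 3 dpl. That fit called 418, 114 and 0 of all 18454 genes in these strata. The median log2 fold change of the list was then -0.65, -0.41 and -0.38.

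*Dusp4* encodes a nuclear phosphatase that is induced by ERK and acts on ERK, JNK and p38. It was the least uniform member. In males at 14 dpl, controls had 18.9, 12.1 and 16 CPM and SCFA libraries 4.54, 10.5 and 8.15 CPM, without overlap and with a log2 fold change of -1.01 ± 0.41. In females at 3 dpl the order was the opposite, at 9.97, 5.94 and 8.02 CPM in controls and 15.9, 32.7, 14.3, 15.2 and 20.8 CPM with SCFA, also without overlap and with a log2 fold change of 0.999 ± 0.38. The highest of these is the lens-rich replicate 2, and the value was 0.54 without it and 0.43 without the 4 libraries that stood apart. The SCFA libraries that remain then, at 15.9, 15.2 and 20.8 CPM, still lay above every control. All controls of this stratum are of the first run. Within that run the log2 fold change was 1.37 ± 0.32 (3 SCFA libraries, of which replicates 2 and 3 stood apart, against 3 controls).

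*Dusp4* also differed between the runs of columns. The fitted difference of the second over the first run was 0.91 ± 0.21 on the log2 scale, or 1.88-fold, and 2.63% of all genes tested had a larger value. In the second run the 4 controls, of males at 3 dpl and females at 14 dpl, had 33.9, 28.7, 44.1 and 29.3 CPM, against 4.19 to 18.9 CPM in the 15 controls of the first run. With SCFA the second-run and first-run means were 14.6 and 7.00, 24.3 and 12.6 CPM in males at 3 and 7 dpl. In females at 3, 7 and 14 dpl they were 18.0 and 21.0, 8.60 and 7.85, and 18.2 and 12.6 CPM. The fit holds 1 run difference for all groups. Its *Dusp4* values in strata without second-run controls depend on that difference. After removal of group and run, *Dusp4* correlated with the log2 percent of mitochondrial mRNA at r = -0.523 (n = 42), so its level was still lower in libraries with more of it. The part of mitochondrial mRNA in its differences was not tested.

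In females at 14 dpl the runs gave opposite directions for *Dusp4*. Within the first run the single control had 6.09 CPM and the SCFA libraries 8.63, 12.8 and 16.4 CPM, a log2 difference of 1.06 ± 0.48. Within the second run the controls had 44.1 and 29.3 CPM and the single SCFA library 18.2 CPM, a log2 difference of -0.99 ± 0.33. Each of these has an arm of 1 library, whose spread is taken from the other groups. The fit over both runs gave -0.36 ± 0.39. The libraries listed in the study's tables of differentially expressed genes set controls of the second run against SCFA libraries of the first, and with those libraries the value was -1.53. In males at 3 dpl both runs had SCFA lower, at -0.27 ± 0.48 in the first (1 SCFA library of 7.00 CPM, controls of 6.56 and 10.4 CPM) and -1.10 ± 0.26 in the second (15.6 and 13.6 CPM against 33.9 and 28.7 CPM).

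**Figure D4:**
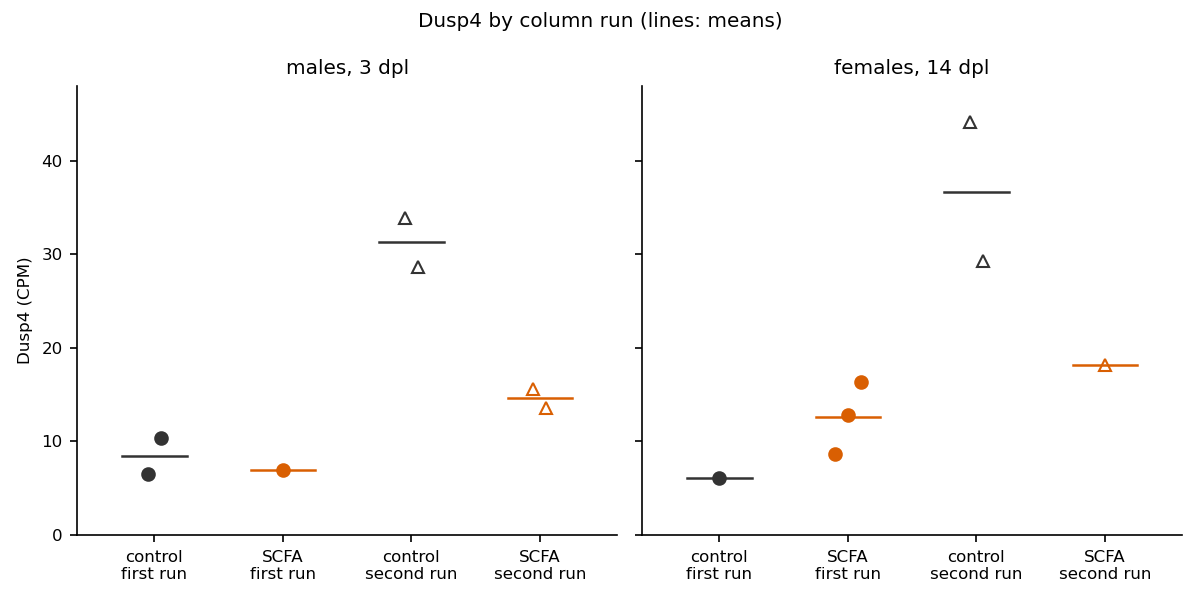
*Dusp4* in CPM (vertical axis) in the 2 strata with both treatments in both runs of columns; points are libraries and lines means. In females at 14 dpl the first-run SCFA libraries lie above the control of 6.09 CPM and the second-run SCFA library lies below controls of 44.1 and 29.3 CPM.

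In the remaining strata *Dusp4* groups overlapped. The log2 fold change was 0.15 ± 0.37 in males at 7 dpl and 0.32 ± 0.46 in females at 7 dpl. Without the libraries that stood apart the value in males at 7 dpl was -0.04. There SCFA replicate 5, of the second run, had 32.1 CPM, and the other 4 SCFA libraries had 10.3 to 16.6 CPM.

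Among the other phosphatases, *Dusp6*, a cytoplasmic phosphatase of ERK, was higher with SCFA in males at 7 dpl (14.3, 15 and 14.3 CPM in controls, 23.1, 15.4, 20.4, 18.2 and 17.9 CPM with SCFA), with a log2 fold change of 0.49 ± 0.20. The highest of these SCFA values are replicates 1 and 3, and without the libraries that stood apart the log2 fold change was 0.39. *Dusp6* was lower in males at 3 dpl (14.7, 15.8, 17.9 and 14.7 CPM against 13.3, 13.4 and 9.52 CPM), at -0.35 ± 0.21. The groups did not overlap in either case. In females it was 0.51 ± 0.20 at 3 dpl (0.31 without the libraries that stood apart) and -0.54 ± 0.21 at 14 dpl, with groups that overlapped over both runs. Within the first run, which holds all controls of females at 3 dpl, *Dusp6* was at 0.70 ± 0.19 there, without overlap. In females at 14 dpl it was lower without overlap in each run, at -0.33 in the first and -0.73 in the second, each with an arm of 1 library.

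*Dusp10*, which acts on JNK and p38 more than on ERK, was lower with SCFA in males at 7 dpl, where controls had 15.9, 14.7 and 14.3 CPM and SCFA libraries 7.88 to 13.3 CPM with a median of 11.3. The log2 fold change was -0.53 ± 0.17, and -0.39 without the libraries that stood apart. It was -0.50 ± 0.19 in males at 14 dpl (15.9, 14.9 and 14.0 CPM against 7.71, 10.9 and 12.8 CPM), and again no SCFA library reached the lowest control. In the other strata *Dusp10* groups overlapped, with log2 fold changes from -0.30 to 0.41. *Dusp5* had log2 fold changes from -0.21 to 0.06, and its groups overlapped in all 6 strata.

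The Sprouty and Spred genes were higher with SCFA in males at 7 dpl. *Spry1* had 6.63, 5.30 and 5.69 CPM in controls and 9.52, 6.74, 13, 8.67 and 8.58 CPM with SCFA, a log2 fold change of 0.77 ± 0.25. *Spred2* had 15.5, 15.4 and 13.9 CPM against 29.3, 17.7, 32.1, 21.6 and 19.9 CPM, at 0.72 ± 0.18. *Spred1* had 61.8, 59.4 and 64.0 CPM against 102, 73.1, 99.6, 91.1 and 92.1 CPM, at 0.55 ± 0.16.

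In the same stratum *Spry4*, an inhibitor of growth factor signalling like *Spry1* and *Spry2*, had 7.50, 8.47 and 6.28 CPM in controls and 9.71, 10.1, 9.33, 12.2 and 13.8 CPM with SCFA, at 0.48 ± 0.21. All 4 genes had every SCFA library above every control. *Spry2* overlapped (60.1, 50.6 and 48 CPM against 76.4, 65.8, 76.6, 63.0 and 55.2 CPM), with 0.46 ± 0.12. In all, 5 members did not overlap upward and 2 downward in males at 7 dpl, where 8.99% and 8.50% of all genes tested did so.

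The 2 highest libraries for *Spred2* and *Spry1* in this group, replicates 1 and 3, were the 2 with mitochondrial mRNA of 13.8% and 14.8%. All 6 Müller glia markers were measured and had positive log2 fold changes in this stratum, with summed levels of 3270 to 4160 CPM in controls and 4470 to 8710 CPM with SCFA, and 1 of the 6 was called higher. Without the libraries that stood apart, the log2 fold changes in males at 7 dpl were 0.54 for *Spry1*, 0.38 for *Spred2*, 0.41 for *Spred1*, 0.57 for *Spry4* and 0.43 for *Spry2*. The sum of 12 pigment epithelium and melanocyte markers was 543 to 718 CPM in controls and 215 to 464 CPM with SCFA, and that of 8 endothelial markers 193 to 211 CPM and 213 to 320 CPM. The part of these cell types in the values was not tested.

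In females at 3 dpl, *Spry1* had 8.20, 7.36 and 7.72 CPM in controls and 11.1, 25.5, 10.1, 7.16 and 8.46 CPM with SCFA. The library of 25.5 CPM is the lens-rich one, and the log2 fold change of 0.74 ± 0.24 was 0.29 without it and 0.27 without the 4 libraries that stood apart. The lens-rich library also held the highest summed level of pigment epithelium and melanocyte markers, and over the group the sum of these 12 markers was 190 to 2090 CPM, against 259 to 479 CPM in controls. All 6 Müller glia markers had positive log2 fold changes here as well and 0 were called, with sums of 4000 to 4800 CPM in controls and 4310 to 7790 CPM with SCFA, and the sum of 6 bipolar cell markers was 642 to 655 CPM against 671 to 889 CPM. The part of these cell types in the values was not tested. *Spred2* was at 0.47 ± 0.18, *Spry4* at 0.39 ± 0.21 and *Spred1* at 0.28 ± 0.16 in this stratum. *Spred2* and *Spry4* were at 0.26 and 0.32 without the 4 libraries that stood apart. Within the first run, which holds all controls of this stratum, *Spry1*, *Spred2*, *Spry4* and *Spred1* did not overlap. There they were at 0.98 ± 0.28, 0.63 ± 0.18, 0.57 ± 0.20 and 0.41 ± 0.13, with 2 of the 3 SCFA libraries among those that stood apart. *Spry2* overlapped, at 0.07 ± 0.13. In females at 7 dpl *Spred1* was at 0.39 ± 0.19 and *Spred2* at 0.45 ± 0.22. *Spry1*, *Spry2* and *Spry4* were at 0.08, 0.03 and 0.12 there, and the groups of all these genes overlapped over both runs. Within the first run of females at 7 dpl, only *Spred1* did not overlap, at 0.50 ± 0.15 (3 SCFA against 2 control libraries).

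*Spry2* was higher with SCFA in males at 14 dpl, with 42.4, 48.8 and 51.6 CPM in controls and 72.4, 55.2 and 60.9 CPM with SCFA, no overlap and a log2 fold change of 0.41 ± 0.13. *Spred2* did not overlap in that stratum either (16.1, 15.6 and 14.6 CPM against 16.8, 18.0 and 17.5 CPM), although its log2 fold change was only 0.18 ± 0.20. In males at 3 dpl *Spry2* was at 0.26 ± 0.12, and in females its values were between -0.16 and 0.09, the latter at 3 dpl, where it was 0.16 without the libraries that stood apart.

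The Spred genes of males at 3 dpl, inhibitors of RAS activation, again differed between the runs of columns. *Spred1* had 54.7 and 71.9 CPM in controls and 60.1 CPM with SCFA in the first run, and 92.8 and 99.4 CPM against 66.7 and 54.1 CPM in the second. The log2 difference was -0.06 ± 0.20 in the first run and -0.68 ± 0.11 in the second. *Spred2* went the same way, at -0.03 ± 0.26 and -0.58 ± 0.13, and the fit over both runs gave -0.40 ± 0.16 for *Spred1* and -0.32 ± 0.19 for *Spred2*. In females at 14 dpl, *Spry1* had 8.06, 7.87 and 8.33 CPM in controls and 7.61, 7.37, 6.66 and 5.47 CPM with SCFA, at -0.38 ± 0.26. Over both runs together it was the only member without overlap there.

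By stratum, the median log2 fold change of the 10 members was -0.30, 0.47 and -0.11 in males at 3, 7 and 14 dpl, and 0.33, 0.13 and -0.17 in females. Over all genes the medians were between -0.03 and 0.01. Members without overlap numbered 0 higher and 2 lower in males at 3 dpl, where 4.74% and 3.75% of all genes did not overlap, and 2 higher and 3 lower in males at 14 dpl, where 15.5% and 17.5% did not. In females they numbered 1 higher and 1 lower at 3 dpl (3.76% and 3.86% of all genes), 0 in either direction at 7 dpl (8.70% and 8.83%) and 0 higher and 1 lower at 14 dpl (2.10% and 1.93%). The first run alone holds all controls of males at 7 dpl and of females at 3 and 7 dpl, in smaller groups. Within it 6 members were higher and 1 lower without overlap in females at 3 dpl. In males at 7 dpl they were 6 and 2, and in females at 7 dpl 1 and 0. The share of all genes within a single run was not counted.

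Other genes of the pathway, in lists also chosen with earlier results of these data known, were seldom called. Of the 5 measured other DUSP and Sprouty family genes, the 7 other feedback genes of the ERK pathway, the 15 genes of the RAS to ERK cascade and the 11 of the JNK and p38 cascades, 0 were called in any stratum. Over all genes 0.0215%, 3.52% and 1.59% were called in males at 3, 7 and 14 dpl and 2.39% in females at 3 dpl. In females at 7 and 14 dpl 0 genes of the 18628 were called by edgeR, while 1669 and 592 had an unadjusted p under 0.05. In males at 7 dpl 1 of 7 nuclear effectors of ERK was called, *Etv1*, an ETS factor, which rose by 1.40 ± 0.22 (edgeR adjusted p = 0.00018). In that stratum 1 of 16 FGF and EGF ligands and receptors was called, *Fgf9*, a growth factor, which rose by 1.03 ± 0.22 (edgeR adjusted p = 0.00155). Without the libraries that stood apart, these were 0.90 and 0.47 and were not called, in a fit that called 114 of 18454 genes there. In females at 3 dpl *Fgfr2* and *Fgfr3*, receptors for fibroblast growth factors, had log2 fold changes of 2.29 ± 0.70 (edgeR adjusted p = 0.0508) and 3.93 ± 0.96 (0.0204). Without those libraries they were 0.50 and 0.45. Neither was then called, but 0 of all 18454 genes were called in that stratum.

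The time course after laser in controls and the sex difference in controls were tested, since the choice of the members did not use them, although they share the control libraries with it. By the same thresholds 0 of the 10 members were called between 3 and 7 dpl or between 7 and 14 dpl in either sex, and edgeR called 0 of all 18628 genes there, with 1187 to 1720 genes at an unadjusted p under 0.05. Between male and female controls, 0 members were called at 3, 7 or 14 dpl, where 0.0376%, 0.0429% and 0.703% of genes were.

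At 14 dpl 3 members were lower in male than in female controls by the adjusted p alone, which 7.64% of genes passed. *Spry2* had 42.4, 48.8 and 51.6 CPM in males and 80.9, 45.0 and 61.0 CPM in females, a log2 fold change of -0.56 ± 0.13 with the run of columns as covariate (edgeR adjusted p = 0.024). The CPM of the sexes overlap. Female replicates 2 and 3 are of the second run, and all 3 male libraries of the first. *Dusp6* was lower in males by 0.75 ± 0.23 (edgeR adjusted p = 0.0636), with 17.1, 13.8 and 15.5 CPM against 23.3, 17.0 and 28.3 CPM. *Spred2* was lower in males by 0.67 ± 0.21 (edgeR adjusted p = 0.0659), with 16.1, 15.6 and 14.6 CPM against 20.9, 22.8 and 27.5 CPM, and only its groups did not overlap among these 3, with males lower, as in 10.4% of all genes. Male controls at 3 dpl had 14.3 and 17.2 CPM of *Spred2* in the first run and 22.5 and 24.5 CPM in the second. The fitted run difference of *Spred2* was nevertheless -0.08 ± 0.10. Within the first run (3 male libraries, 1 female library) the log2 differences were -0.76 for *Spry2*, -0.58 for *Dusp6* and -0.43 for *Spred2*. The part of the run in these sex differences was not tested.

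Of the members, *Dusp10* had the largest difference between the sexes in its time course. Female controls had 17.1, 15.6 and 15.2 CPM at 3 dpl and 8.84 and 7.84 CPM at 7 dpl. Male controls had 10, 11.9, 13.7 and 12.5 CPM at 3 dpl and 15.9, 14.7 and 14.3 CPM at 7 dpl. The female libraries were thus lower on the later day and the male libraries higher, without overlap in either sex, as in 12.2% of all genes lower in females and 3.63% higher in males. The interaction of day and sex was 1.38 ± 0.29 on the log2 scale, but its edgeR adjusted p over all genes was 0.437, and 0 genes were called for this term, with 1330 at an unadjusted p under 0.05. The excluded female control 7 dpl replicate 2, with Y-linked transcripts, had 18.1 CPM. With it the interaction was 0.90. DESeq2 called the interaction of *Dusp10* (adjusted p = 0.0505), and over all alternatives its adjusted p ran from 0.00159 to 1.

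Across libraries, after removal of group and run, *Spred1* and *Spred2* varied together at r = 0.839 (n = 42), the highest value among pairs of members. *Dusp4* and *Spred1* had r = 0.684, and *Dusp4* and *Spry2* had -0.508. The genes outside the set whose residuals were most like the mean of the 10 were *Morn4* (r = 0.835), *AI593442* (0.819), *Irf2bpl* (0.819), *Rnd3* (0.813) and *Mcl1* (0.803), among 11688 genes over the same 42 libraries. For *Dusp1* alone the most alike were *Plk2* (0.886), a kinase induced by neuronal activity, *Fos* (0.823) and *Sik1* (0.807). These correlations are descriptions, and libraries that share a run or a dissection share more than these genes.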

How the data were processed

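Novogene sequenced the retinal RNA in read pairs, 150 bases each. The authors deposited raw counts of reads per gene for 54532 genes in 43 libraries. The submitters' processing notes name mm10 and DESeq2. The aligner, counter and strand setting are not given in the sources used here, so reads of genes that overlap *Dusp1*, *Dusp5*, *Dusp10*, *Spry1* and *Spry4* may be shared with them. Groups were taken from the sample titles, because the treatment field reads control throughout. The g/L values beside the mM doses put butyrate above propionate, so these doses are uncertain. The members and gene lists were chosen with earlier results of these data known.

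Genes were named from GENCODE M21 (GRCm38), which holds 54495 of the identifiers. Counts were filtered by filterByExpr, scaled by TMM and compared in edgeR 4.0.16 (R 4.3.3) by its quasi-likelihood F test, with Benjamini-Hochberg adjustment over 18628 genes, in a single fit of 42 libraries with the 12 groups and the run of columns as terms. A call needed an adjusted p under 0.1 together with a log2 fold change beyond 1 in either direction. The SE is the log2 fold change divided by the square root of F. Library totals were 14826957 to 21507527 counts, CPM use these totals scaled by TMM, and counting error at 63 counts or more is the only error that depth covers. Correlations used log2(CPM + 1). Named genes are the members, up to 4 called genes per pathway list and comparison, and the 5 genes most alike. A marker list was summed in CPM. Alternatives were DESeq2 1.42.0, RLE scaling, no filter, a minimum of 10 counts, GC and length trends, single runs, pairwise and robust fits, a replicate block, no column run term, the thresholds of a call, a pseudocount of 0.1, the study's libraries, inclusion of the library with Y-linked counts and each library left out. Leaving out the 4 libraries with over 10% mitochondrial mRNA or over 10000 CPM of lens markers was chosen after seeing the data. The fits were tested on simulated data. P-values measure the spread between pools of 2 retinas.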

Additional observations from a re-analysis of the deposited data

Results flagged for a closer look

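*Dusp4* in male SCFA 7 dpl replicate 5 was 32.1 CPM, against 16.6 CPM in the nearest of the other 4 libraries, a gap that is large for the range of the group. *Spry1* in female SCFA 3 dpl replicate 2, the lens-rich library, was 25.5 CPM, against 11.1 CPM in the nearest library. Of 50 combinations of a member and a group of 4 or 5 libraries, these 2 were set apart in this way, and chance sets apart about 5% of such groups.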

How the results depend on the processing

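Over the alternatives run, 311 summary values (the median of the members, or the count called, in a comparison) were held as unmoved and 16 as moved. A median was unmoved if it changed by less than its spread within groups. A count was unmoved if it stayed equal or nearly equal, often at 0, and no spread was used for it. No called value changed sign, while values not called may cross 0. The median of the members was -0.063 in males at 3 dpl with the first run of columns alone and -0.46 with a replicate block. It was 0.33 in males at 7 dpl with the study's libraries. In females it was 0.49 at 3 dpl with the first run alone, 0.51 at 3 dpl with a pairwise fit, and -0.39 at 14 dpl with the second run alone. With each library left out, the medians ran from -0.41 to -0.19, 0.39 to 0.49 and -0.19 to -0.04 in males at 3, 7 and 14 dpl, and from 0.20 to 0.40, -0.072 to 0.42 and -0.34 to -0.075 in females, where the 0.42 is without female control 7 dpl replicate 1 and the -0.34 without female control 14 dpl replicate 1. In control comparisons, counts of called members went from 0 to 1 without a filter (*Dusp4* in females at 14 against 7 dpl and between the sexes at 7 dpl), with the study's libraries at 7 dpl (*Dusp4*) and with a pairwise fit at 14 dpl (*Dusp4*), and to 3 at 14 dpl without the fold threshold. For the interaction of sex with 7 against 3 dpl the count was 1, *Dusp10*, with DESeq2, without a filter and with a pairwise fit. With each library left out, the lowest and the highest count were 0 in all control comparisons. The causes were not tested. Same-numbered control and SCFA libraries shared only a number: the correlations of their deviations ran from -0.535 to 0.596 over 17 pairs, 6 of them above 0.1. With a replicate block 0 members were called in the control comparisons, as without it. Depth limits the members little, since the lowest count was 63.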
